A study of Mus musculus with 2 samples.

Results

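A set of 9 genes of steroid hormone action was followed through the cells of the mouse uterus: Esr1, Pgr, Nr3c1 and Pgrmc1, which encode receptors or a receptor component, the cofactors Greb1 and Nrip1, the cochaperones Fkbp4 and Fkbp5, and Foxo1, a partner of the progesterone receptor. They were taken by symbol, 9 of 31053 listed genes, and each symbol belonged to 1 identifier. The study prepared single cells from whole uterus on gestational day 4, with 1 library from Mettl14 f/f mice, whose alleles carry recombination sites, and 1 library from Mettl14 d/d mice, whose alleles are labelled as deleted. The METTL14 protein is part of the enzyme complex that writes N6-methyladenosine into RNA. The labels give no Cre driver, deleted exon, age or number of animals, and no allele or agent besides these was named for either library.

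Steroid receptors are transcription factors that bind a hormone, dimerise and act on response elements in DNA. Before they bind it they are held in a complex with the chaperone HSP90 and with cochaperones such as FKBP52 (Fkbp4), which favours receptor activity, and FKBP51 (Fkbp5), which dampens it and is itself induced by glucocorticoids and progestins. In the mouse uterus, estrogen drives growth of the epithelium, and progesterone, acting largely through the stroma, stops that growth and prepares the tissue for the embryo. The cofactors GREB1 and NRIP1 (RIP140) bind the estrogen receptor, and both genes are also known as hormone targets.

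The f/f library held 7095 cells after filtering and the d/d library 5977, at a median of 6085 and 5217 unique molecular identifiers (UMIs, counts of captured RNA molecules) per cell. Cell classes were built from marker genes, so that "stroma" stands for stroma-like cells and likewise for the others. All 8 markers of each of the 6 compared classes had UMIs in that class in both libraries. The libraries shared 8 barcodes. With 1 library per genotype there is no replicate check and no test. Intervals in parentheses are exact at 95% (Poisson for sums, Clopper-Pearson for shares, conditional for ratios) and cover counting error only, so the values compare these libraries. Mettl14 stood at 14.6 UMIs per 1000000 UMIs of the class (CPM) in f/f stroma against 2.46 CPM in d/d stroma, at 20.7 and 4.80 CPM in epithelium, and at 18.7 and 18.3 CPM in blood endothelium. A 3′ tag can lie outside the deleted part, so the remaining tags do not show an intact transcript. Stromal clusters differed between the libraries: clusters 0 (led by Hrk and Tac2), 1 (Hhip and Angptl7) and 4 (Nog and Lef1) held 38.6%, 27.2% and 18.8% of f/f stroma, while 65.8% of d/d stroma lay in cluster 3, led by A2m and Itgbl1. Cluster 5, led by Clec3b and Adh1, held 337 f/f and 507 d/d cells and is called the shared stromal cluster. The f/f epithelium split into a glandular-like part (105 cells) and a luminal-like part (74 cells), whereas the main d/d sub-cluster (127 cells) matched neither part by its markers.

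The sequences just upstream of Greb1, Foxo1, Fkbp4 and Fkbp5 are shown because these are the 4 genes that differed at least 1.5-fold between the libraries in stroma. Each is the 225 bases that lie 250 to 26 bases before the RefSeq start in GRCm38.p6, in the direction of the gene. RefSeq held such an entry for 8 of the 9 genes, and Nr3c1 was the gene without one. Capitals mark matches on either strand to GGTCA, an arm of the estrogen response element, to AGAACA, an arm of the element shared by the glucocorticoid and progesterone receptors, to the forkhead motif TGTTTAC, to the heat shock element (GAA, TTC and GAA with 2 free bases between each), and to CCAAT.
Greb1, chr12:16800912-16801136, minus strand: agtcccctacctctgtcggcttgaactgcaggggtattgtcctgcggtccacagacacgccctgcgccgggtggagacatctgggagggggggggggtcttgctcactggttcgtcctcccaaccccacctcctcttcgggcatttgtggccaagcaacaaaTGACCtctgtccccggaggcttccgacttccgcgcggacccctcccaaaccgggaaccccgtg
Foxo1, chr3:52268087-52268311, plus strand: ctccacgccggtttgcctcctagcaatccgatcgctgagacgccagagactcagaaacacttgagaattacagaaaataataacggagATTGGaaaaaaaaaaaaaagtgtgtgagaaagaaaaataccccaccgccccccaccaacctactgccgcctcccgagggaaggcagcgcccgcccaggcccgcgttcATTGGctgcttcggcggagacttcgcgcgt
Fkbp4, chr6:128438682-128438906, minus strand: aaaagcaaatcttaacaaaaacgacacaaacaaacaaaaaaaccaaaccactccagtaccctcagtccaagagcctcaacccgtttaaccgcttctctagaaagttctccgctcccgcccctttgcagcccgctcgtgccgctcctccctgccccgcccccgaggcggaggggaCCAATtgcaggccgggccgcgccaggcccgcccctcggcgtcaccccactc
Fkbp5, chr17:28486175-28486399, minus strand: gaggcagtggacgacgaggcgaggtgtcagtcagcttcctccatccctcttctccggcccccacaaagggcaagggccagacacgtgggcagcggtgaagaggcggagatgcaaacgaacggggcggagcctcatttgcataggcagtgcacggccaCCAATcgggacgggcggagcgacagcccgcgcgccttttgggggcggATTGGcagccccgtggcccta
The Greb1 window held 1 GGTCA match, read on the other strand as TGACC and 88 bases before the start. Of 32851 such windows, 32.5% held this motif, so the match is not rare. A second RefSeq start of Greb1, not shown, had 2 matches, 194 and 85 bases before it. CCAAT, found in 31.6% of windows, occurred in Fkbp4 (76 bases before the start), in Fkbp5 (93 and 46 bases) and in Foxo1 (162 and 55 bases). None of the 4 windows held AGAACA (14.7% of windows), TGTTTAC (2.86%) or the heat shock element (0.405%). The full elements, each with 3 free bases between the arms, were absent too: GGTCA with TGACC (0.0578%) and AGAACA with TGTTC (0.0274%). A match describes these letters only. The Fkbp5 window lies inside the longer gene of the GRCm38 annotation, chr17:28399094-28517527.

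A gene is counted as higher or lower below where its CPM differed at least 1.5-fold between the libraries and the higher library held 50 UMIs or more. By this rule 4 of the 9 genes differed in stroma, Greb1 and Foxo1 being higher in d/d and Fkbp4 and Fkbp5 lower, while 29.3% of all 13876 genes tested there differed (11.9% higher, 17.3% lower). In epithelium 5 of 9 differed, Nr3c1 and Greb1 being higher and Nrip1, Fkbp5 and Foxo1 lower, against 26.8% of all genes (11.6% higher, 15.2% lower). In smooth muscle 4 of 9 differed, with Nr3c1 and Greb1 higher and Fkbp4 and Fkbp5 lower, against 17.2% of all genes (9.91% higher, 7.33% lower). None differed in pericytes (21.7% of all genes; 8.43% higher, 13.3% lower), Pgr alone was lower in blood endothelium (17.0% of all genes; 8.57% higher, 8.39% lower), and Esr1, Pgr, Fkbp4 and Pgrmc1 were lower in macrophages (18.3% of all genes; 10.1% higher, 8.19% lower). Pericytes lay mostly in cluster 13 in f/f (278 of 332 cells) and in cluster 7 in d/d (651 of 752 cells), so the class values move with these shares. Within cluster 13, 2 of 9 genes were lower (16.1% of all genes differed), and within cluster 7, 2 of 9 were higher (15.2%).

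**Figure D1:**
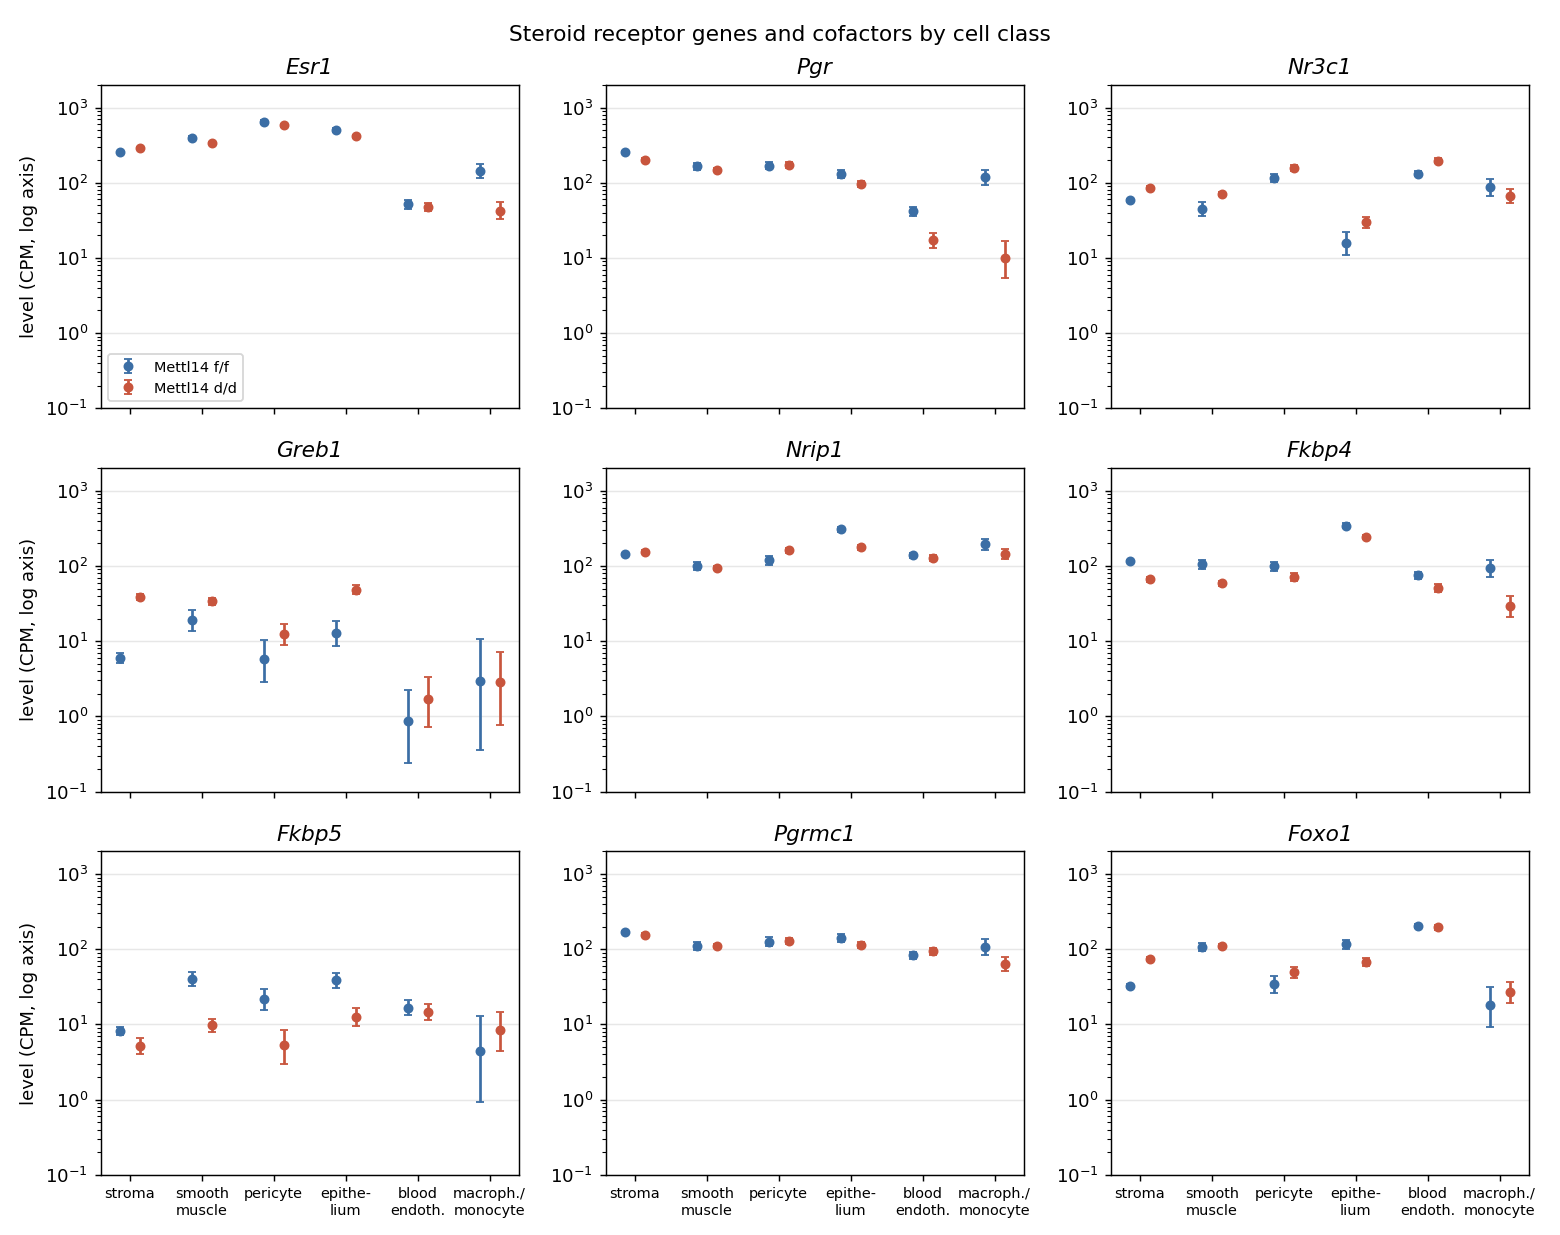
Level of each gene in 6 cell classes, in CPM on a log axis, with the f/f library in blue and the d/d library in red; bars are exact 95% Poisson intervals. Greb1 stood at 6.0 CPM in f/f stroma against 38.7 CPM in d/d stroma, while Esr1 kept the order pericyte, epithelium, smooth muscle, stroma in both libraries.

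Esr1 encodes estrogen receptor alpha, through which the uterus responds to estradiol (chr10:4611593-5005614, plus strand, GRCm38). Pericytes had 647 CPM in f/f against 578 CPM in d/d, epithelium 501 and 417, smooth muscle 392 and 336, and stroma 254 and 289. These classes kept the same order in both libraries, and no neighbours in it had overlapping intervals. The log2 fold of d/d over f/f in stroma was 0.19 (0.13 to 0.25), from 8538 and 3762 UMIs, and in the shared stromal cluster it was 0.08 (-0.11 to 0.26), an interval that holds 0. Esr1 therefore differed by less than 1.5-fold in stroma, epithelium, smooth muscle, pericytes and blood endothelium.

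Within the epithelium the level of Esr1 depended on the part. In f/f the glandular-like part had 835 CPM (932 UMIs) and the luminal-like part 149.7 CPM (159 UMIs). The d/d epithelium, at 417 CPM, lay between them. Set against the luminal-like part alone it was higher by 1.48 on the log2 scale (1.24 to 1.72), and against the glandular-like part alone lower, at -1.0 (-1.12 to -0.89). The direction of the epithelial difference in Esr1 thus rests on which f/f part is taken as its counterpart. In 5 of 9 genes the d/d epithelium differed from the luminal-like part (29.7% of all genes) and in 6 of 9 from the glandular-like part (22.2% of all genes).

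Pgr encodes the progesterone receptor, itself induced by estrogen in several uterine cells (chr9:8899833-8968611, plus strand). Stroma had the highest level in both libraries, 258 CPM in f/f against 203 CPM in d/d, a log2 fold of -0.34 (-0.41 to -0.28) from 8689 and 2646 UMIs. The shared stromal cluster had 177 and 148 CPM (-0.25, -0.49 to -0.01). The d/d library was lower in both, by less than 1.5-fold. In f/f the stromal clusters 0, 1 and 4 ranged from 258 to 278 CPM, and the main d/d cluster 3 had 219 CPM. Pericytes had 168 and 173 CPM and smooth muscle 165 and 149 CPM, each within 1.5-fold.

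Single clusters of the contractile cells gave other values for the receptors than their class. In the smooth muscle cluster 6, led by Acta1 and Chrdl1, Pgr was lower, at 337 CPM in f/f against 210.2 CPM in d/d (-0.68, -0.91 to -0.45), and in cluster 2 it had 110.1 and 135 CPM. By the 1.5-fold rule 13.5% of all genes differed in cluster 6 and 14.7% in cluster 2. In the pericyte cluster 13 both Esr1 (647 and 416 CPM) and Pgr (174 and 116 CPM) were lower, against 16.1% of all genes that differed there. In the pericyte cluster 7, where the f/f values rest on 14 and 11 UMIs, Pgr (98.9 and 185 CPM) and Nrip1 (77.7 and 174 CPM) were higher, against 15.2% of all genes that differed. Pgr thus differed in opposite directions in the 2 pericyte clusters, whereas Esr1 in cluster 7 was even between the libraries (643 and 615 CPM).

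In epithelium Pgr ran opposite to Esr1 between the f/f parts. The luminal-like part had 178 CPM (189 UMIs) and the glandular-like part 83.3 CPM (93 UMIs), and the d/d epithelium had 96.2 CPM (401 UMIs). Against the luminal-like part the log2 fold was -0.89 (-1.14 to -0.63), and against the glandular-like part it was 0.21 (-0.12 to 0.55), an interval that holds 0. Over the whole epithelium it was -0.43 (-0.65 to -0.20).

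In blood endothelium, with 487 f/f cells and 603 d/d cells, Pgr was lower in d/d. The class had 41.8 CPM in f/f (192 UMIs) against 17.2 CPM in d/d (82 UMIs), that is a log2 fold of -1.28 (-1.67 to -0.90). Esr1 was even over the class (51.6 and 47.5 CPM) and lower in cluster 11 (86.5 and 35.1 CPM). For Pgr both endothelial clusters were lower, cluster 8 at -1.01 (-1.50 to -0.54) and cluster 11 at -2.26 (-3.12 to -1.47), where 13.8% and 15.6% of all genes differed. The 8 stroma markers, all with UMIs, summed to 1050 CPM in f/f against 634 CPM in d/d endothelium, which is 8.49% and 2.82% of their level in the stroma of the same library. Their part in the result was not tested beyond a setting with free RNA subtracted. Over 10 alternative settings, that one among them, the Pgr log2 fold of the class ranged from -1.94 to -0.72.

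Of the 6 compared classes, macrophages showed the widest ratio between the libraries for Esr1, for Pgr and for the summed stroma markers. Pgr stood at 118 CPM in f/f (79 UMIs) against 9.92 CPM in d/d (14 UMIs), and Esr1 at 145 CPM (97 UMIs) and 42.5 CPM (60 UMIs). Fkbp4 had 94.0 and 29.1 CPM and Pgrmc1 107 and 63.8 CPM there. The 8 stroma markers, none at 0 in either library, summed to 4794 CPM in f/f against 918 CPM in d/d macrophages, or 38.7% and 4.08% of their stromal level. Their part in the 4 lower genes was not tested beyond a setting with free RNA subtracted. Over 10 alternative settings the log2 fold of Pgr ranged from -4.26 to -2.31 and that of Esr1 from -2.13 to -0.87. Fkbp4 ranged from -1.90 to -1.23 and Pgrmc1 from -0.99 to -0.29. Nr3c1 (88.0 and 67.3 CPM), Nrip1 (194 and 145 CPM) and Foxo1 (17.9 and 26.9 CPM) differed by less than 1.5-fold or had under 50 UMIs in the higher library, and Greb1 (2 and 4 UMIs) and Fkbp5 (3 and 12 UMIs) were too sparse to compare. The Pgrmc1 value came under 1.5-fold in 2 of 10 alternative settings.

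T cells held few UMIs of either sex steroid receptor. They had 0 Esr1 UMIs in f/f, where the upper interval bound of a count of 0 is 40.4 CPM, and 9.43 CPM (7 UMIs) in d/d. Pgr had 3 UMIs in f/f T cells and 5.39 CPM (4 UMIs) in d/d T cells. Mesothelium, present with 36 cells in f/f alone, had 449 CPM of Esr1 and 37.0 CPM of Pgr.

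Cells with both receptors were counted after thinning each cell to 2000 UMIs, so that depth would not set the share. In f/f stroma 16.3% of 4441 cells had both Esr1 and Pgr RNA, against 15.8% if the genes were detected independently of each other. In d/d stroma it was 13.2% of 1595 cells, against 12.7%. Pericytes had both in 23.9% of f/f cells and in 17.9% of d/d cells. In epithelium the share with both was 11.1% of f/f cells (6.82 to 16.8) against 13.95% if independent, and 6.94% of d/d cells (3.38 to 12.4) against 9.23%. In f/f smooth muscle it was 12.01% against 13.3%. In sparse counts these shares lie below the share of cells that express both genes.

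Nr3c1 encodes the glucocorticoid receptor, the main receptor for corticosterone. Its order across classes differed from that of Esr1, with epithelium the lowest class of those compared in each library. Lymphatic endothelium had 319.7 CPM in f/f against 386 CPM in d/d, T cells 296 and 458, blood endothelium 132 and 197, stroma 58.4 and 86.3, and epithelium 15.6 and 29.7. The d/d level was above the f/f level in each of these 5 classes, though the intervals overlapped in lymphatic endothelium and T cells. Dendritic cells (77.2 and 70.8 CPM) and macrophages (88.0 and 67.3 CPM) went the other way, also with overlapping intervals. In epithelium the log2 fold was 0.93 (0.37 to 1.52) from 34 and 124 UMIs, and in smooth muscle, at 45.1 and 70.9 CPM, it was 0.65 (0.35 to 0.97). The epithelial value came under 1.5-fold in 1 of 14 alternative settings and the smooth muscle value in 4 of 11, down to 0.24. The smooth muscle clusters that both libraries held differed by less, cluster 2 at 40.6 and 54.8 CPM (0.43, 0.01 to 0.87) and cluster 6 at 38.4 and 51.4 CPM (0.42, -0.22 to 1.13). Cluster 10, led by Sncg and Rergl and made of 442 d/d and 47 f/f cells, had 143 CPM in d/d, so its share moves with the class value. Pericytes had 116 and 156 CPM (0.43, 0.20 to 0.67). Stroma (0.56, 0.46 to 0.67) and blood endothelium (0.57, 0.43 to 0.72) lay just under the 1.5-fold rule.

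In the shared stromal cluster Nr3c1 had 114 CPM in f/f against 128 CPM in d/d, a log2 fold of 0.16 (-0.12 to 0.44) that holds 0. The f/f clusters 0, 1 and 4 had 49.9 to 57.7 CPM, and the d/d cluster 3 had 78.9 CPM. The libraries do not share those clusters, so cluster and library cannot be told apart there.

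Pgrmc1 encodes a heme-binding membrane protein that takes part in nongenomic progesterone responses (chrX:36598206-36606079, plus strand). Like Esr1, it stayed within 1.5-fold in the 5 compared classes other than macrophages. Stroma had 169 and 155 CPM (-0.12, -0.19 to -0.05), pericytes 127 and 129, smooth muscle 110.1 and 111, epithelium 141 and 115, and blood endothelium 83.4 and 93.5. In the shared stromal cluster it was higher in d/d, at 95.8 and 128 CPM (0.42, 0.12 to 0.72), by less than 1.5-fold.

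**Figure D2:**
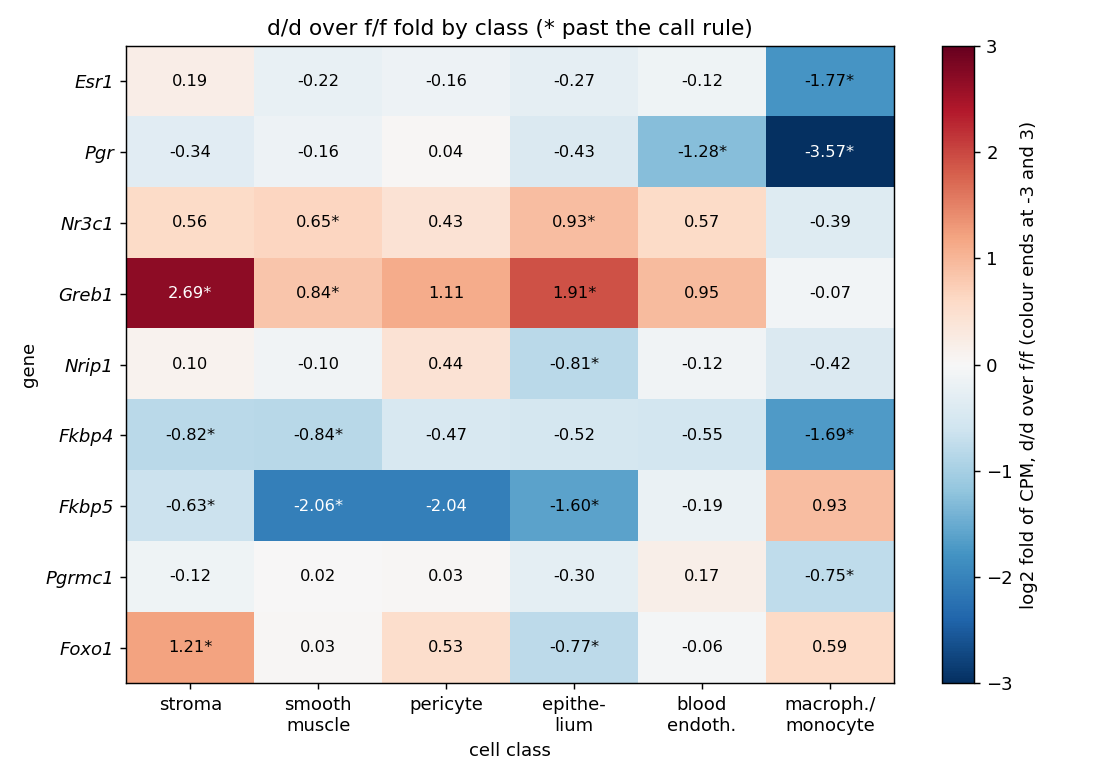
Log2 fold of d/d over f/f for each gene (rows) and cell class (columns), in colour from -3 to 3, with values beyond shown in the end colours; a star marks a gene past the 1.5-fold rule. Greb1 is starred in stroma (2.69), epithelium (1.91) and smooth muscle (0.84), and Foxo1 is starred with opposite signs in stroma (1.21) and epithelium (-0.77).

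Greb1, an estrogen-induced cofactor of the estrogen receptor (chr12:16670615-16800886, minus strand), showed the widest difference of the 9 genes in stroma. It stood at 6.0 CPM in f/f (202 UMIs) against 38.7 CPM in d/d (504 UMIs), a 6.46-fold difference (5.47 to 7.64). In the shared stromal cluster it had 10.4 CPM (16 UMIs) and 37.6 CPM (79 UMIs), a ratio of 3.61 (2.09 to 6.61). There 3 of 9 genes differed, against 14.9% of all genes (7.51% higher, 7.41% lower). The f/f stromal clusters 0, 1, 4 and 5 lay between 5.11 and 10.4 CPM, and the d/d clusters 3 and 5 had 39.8 and 37.6 CPM, so the 2 ranges did not overlap. The cycling stromal cluster 12 had 14 UMIs in 363 f/f cells and 20 UMIs in 50 d/d cells, or 3.64 and 29.0 CPM.

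The share of stromal cells with a Greb1 UMI, after thinning to 2000 UMIs, was 1.19% in f/f (0.895 to 1.56) and 7.27% in d/d (6.05 to 8.66). Without thinning it was 4.07% and 22.5%, at median depths of 6653 and 6962 UMIs per stromal cell. T cells had no Greb1 UMI in 52 f/f and 257 d/d cells, at median depths of 1470 and 2666 UMIs. Those counts of 0 allow up to 32.8 CPM in f/f, above the level of f/f stroma, and up to 4.04 CPM in d/d, so they give no usable background for f/f. Within d/d stroma, Greb1 was found in 7.15% of cells with an Esr1 UMI and in 7.37% of the other cells after thinning. In f/f stroma it was 1.33% and 0.874%. Epithelium had 2.94% and 0% in f/f and 9.20% and 7.02% in d/d. Smooth muscle had 3.65% and 3.74% in f/f and 6.54% and 5.13% in d/d. Pericytes had 1.33% and 1.32% in f/f and 1.86% and 1.70% in d/d. An Esr1 UMI was found in 43.2% of d/d stromal cells after thinning and in 78.2% without it. The other cells thus include cells with Esr1 RNA.

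Epithelium had 12.9 CPM of Greb1 in f/f (28 UMIs) against 48.5 CPM in d/d (202 UMIs), that is a log2 fold of 1.91 (1.34 to 2.54). Of the 28 f/f UMIs, 27 came from the glandular-like part (24.2 CPM) and 1 from the luminal-like part. The d/d epithelium was 2.00-fold above the glandular-like part (1.34 to 3.11), and its ratio to the luminal-like part, which rests on 1 UMI, was 51.5 with an interval of 9.13 to 2043. Smooth muscle had 19.1 and 34.0 CPM (0.84, 0.37 to 1.34). Its cluster 6 had 1 f/f and 75 d/d UMIs, and cluster 2 had 25.4 and 44.6 CPM. Pericytes had 11 and 38 UMIs (5.80 and 12.5 CPM), below the 50-UMI rule, and blood endothelium 4 and 8 UMIs. T cells, dendritic cells and lymphatic endothelium had 0 UMIs in both libraries.

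The annotated span of Greb1 overlaps an antisense gene model, Gm48140, and a gene model on its own strand, Gm44305. No model on its strand lies in its last 5 kb, where 3′ tags fall. The spans of Foxo1 and Fkbp5 also overlap models on both strands, with none on their own strand in the last 5 kb. The differences in Greb1 stood beside a difference in genes that respond to tissue dissociation. The 16 such genes, which include Fos, Ier3, Nr4a1 and Hspa1a, were all higher in d/d stroma, with a summed level of 3169 CPM in f/f against 13067 CPM in d/d, and 13 of 16 were higher in the shared stromal cluster. Their part in the results on Greb1, Foxo1 and the glucocorticoid-induced genes was not tested. In epithelium the sums were 10817 and 14658 CPM (4 of 16 higher, 2 lower), and in smooth muscle 8264 and 18679.7 CPM (15 of 16 higher).

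Nrip1 encodes RIP140, a corepressor of several nuclear receptors that is needed for ovulation (chr16:76287400-76373827, minus strand). In stroma it had 145 and 155 CPM (0.10, 0.03 to 0.18), and in the shared cluster 152 and 162 CPM. Pericytes had 119 and 161 CPM, smooth muscle 100.4 and 93.5 CPM and blood endothelium 139 and 128 CPM, all within 1.5-fold. Epithelium had 309.9 CPM in f/f (675 UMIs) against 177 CPM in d/d (738 UMIs), that is a log2 fold of -0.81 (-0.96 to -0.65). Both f/f parts lay above d/d, the glandular-like part at 355 CPM and the luminal-like part at 263 CPM, and the second differed by just under 1.5-fold (-0.57, -0.77 to -0.37). T cells had the highest value in both libraries, 416 and 576 CPM, although in f/f its interval overlapped that of epithelium.

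Fkbp4 encodes FKBP52, without which the mouse uterus responds poorly to progesterone (chr6:128429735-128438677, minus strand). Epithelium had the highest level in both libraries, 345 CPM in f/f against 241 CPM in d/d. Stroma had 117 CPM in f/f (3939 UMIs) against 66.4 CPM in d/d (864 UMIs), that is a log2 fold of -0.82 (-0.92 to -0.71). The shared stromal cluster had 79.5 and 49.0 CPM (-0.70, -1.09 to -0.31), and the cycling cluster 12 had 153 and 89.8 CPM. Thinned to 2000 UMIs, 20.4% of f/f and 10.8% of d/d stromal cells had a Fkbp4 UMI.

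Smooth muscle lay close to stroma in this gene, with 105 and 58.8 CPM (-0.84, -1.06 to -0.61). Epithelium (-0.52, -0.66 to -0.38), blood endothelium (75.3 and 51.3 CPM, -0.55) and pericytes (99.1 and 71.6 CPM, -0.47) were also lower in d/d, by less than 1.5-fold. Fkbp4 was thus lower in d/d in all 6 compared classes, past the rule in stroma, smooth muscle and macrophages. Within pericytes this held in cluster 7 (98.9 and 63.4 CPM), where f/f had 14 UMIs. It did not hold in the pericyte cluster 13 (99.1 and 108 CPM, from 174 and 60 UMIs). Against the f/f glandular-like part alone the epithelial log2 fold was -0.70 (-0.86 to -0.53).

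Fkbp5, the counterpart of Fkbp4 in the same complex, was sparse in every class. Smooth muscle had 40.4 CPM in f/f (87 UMIs) against 9.69 CPM in d/d (105 UMIs), that is a log2 fold of -2.06 (-2.49 to -1.63). Epithelium had 38.6 CPM (84 UMIs) and 12.7 CPM (53 UMIs), at -1.60 (-2.13 to -1.09), and stroma 8.11 CPM (273 UMIs) and 5.23 CPM (68 UMIs), at -0.63 (-1.04 to -0.25). The stromal value fell under 1.5-fold in 2 of 11 alternative settings. Pericytes had 21.6 and 5.26 CPM from 41 and 16 UMIs, a log2 fold of -2.04 (-2.97 to -1.18) that missed the 50-UMI rule.

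Within stroma, the level of Fkbp5 was highest in the shared cluster, with 28.7 CPM in f/f (44 UMIs) against 15.7 CPM in d/d (33 UMIs). The f/f clusters 0, 1 and 4 had 4.64, 10.6 and 1.68 CPM, and the d/d cluster 3 had 2.58 CPM. The cycling cluster 12 had 16.9 and 13.04 CPM (65 and 9 UMIs), and in d/d its interval overlaps that of the shared cluster. Blood endothelium, at 16.8 and 14.7 CPM, was even between the libraries (-0.19, -0.68 to 0.30). The f/f luminal-like part had 50.8 CPM, the glandular-like part 26.9 CPM, and the d/d epithelium lay below both.

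**Figure D3:**
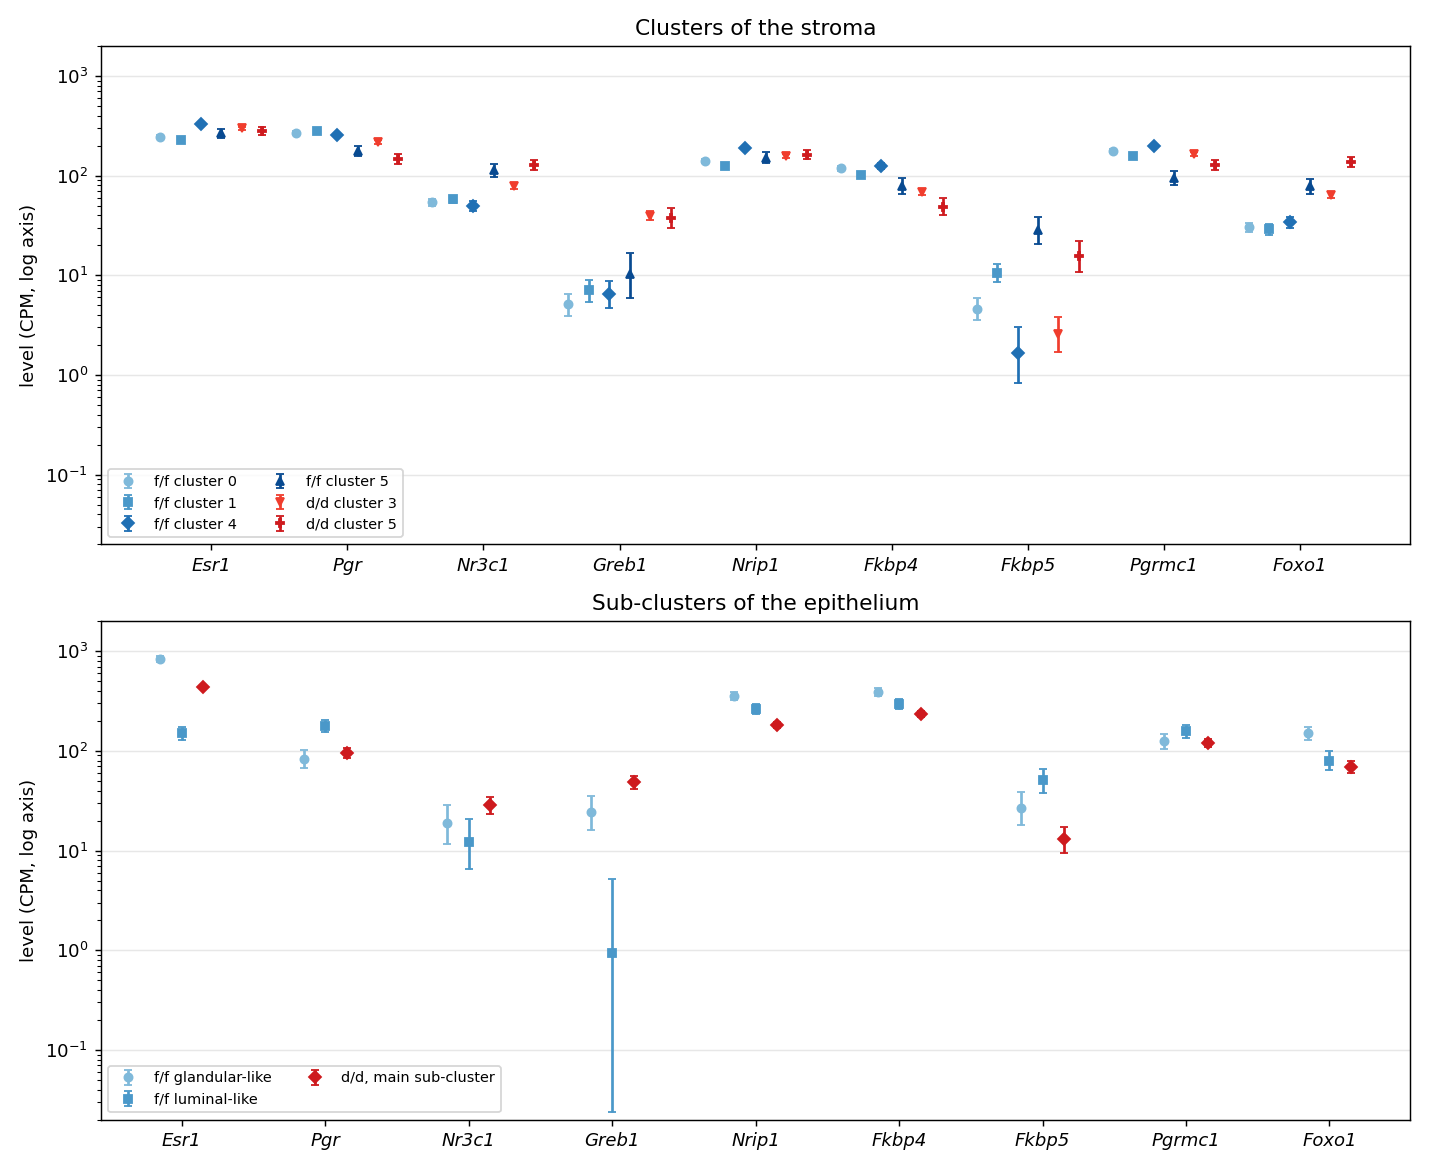
Level of each gene in parts of the stroma and epithelium, in CPM on a log axis with exact 95% Poisson intervals: f/f stromal clusters 0, 1, 4 and 5, d/d stromal clusters 3 and 5, the f/f glandular-like and luminal-like epithelium and the main d/d epithelial sub-cluster. Esr1 and Pgr take opposite orders in the 2 f/f epithelial parts (835 and 149.7 CPM of Esr1, 83.3 and 178 CPM of Pgr), and Greb1 is higher in both d/d stromal clusters (39.8 and 37.6 CPM) than in the f/f ones (5.11 to 10.4 CPM).

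Foxo1 encodes a forkhead factor that is held out of the nucleus by insulin signalling and acts with the progesterone receptor in decidual cells (chr3:52268336-52353221, plus strand). In stroma it stood at 32.2 CPM in f/f (1083 UMIs) against 74.3 CPM in d/d (966 UMIs), a 2.31-fold difference (2.11 to 2.52). The shared stromal cluster was higher in both libraries, at 78.2 CPM (120 UMIs) and 137 CPM (287 UMIs), a ratio of 1.75 (1.41 to 2.18). The f/f clusters 0, 1 and 4 had 29.1 to 33.9 CPM, and the d/d cluster 3 had 63.8 CPM. The shared cluster, where Foxo1 was high, made up 29.8% of d/d and 7.29% of f/f stroma, so its share moves with the class value.

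After thinning to 2000 UMIs, 6.82% of f/f stromal cells (6.10 to 7.60) and 16.1% of d/d stromal cells (14.3 to 17.9) had a Foxo1 UMI. Without thinning it was 20.3% and 40.3%. T cells express Foxo1 and so give no background for it.

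Epithelium went the other way, with 116 CPM in f/f (253 UMIs) against 67.9 CPM in d/d (283 UMIs), that is a log2 fold of -0.77 (-1.02 to -0.52). The glandular-like part had 151 CPM and the luminal-like part 80.0 CPM. The d/d epithelium was lower than the first, at -1.15 (-1.43 to -0.86), and against the second it was -0.24 (-0.59 to 0.13), an interval that holds 0. Blood endothelium (204 and 195 CPM) and smooth muscle (108 and 109.8 CPM) were even between the libraries. Pericytes had 34.3 and 49.6 CPM (0.53, 0.10 to 0.98).

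**Figure D4:**
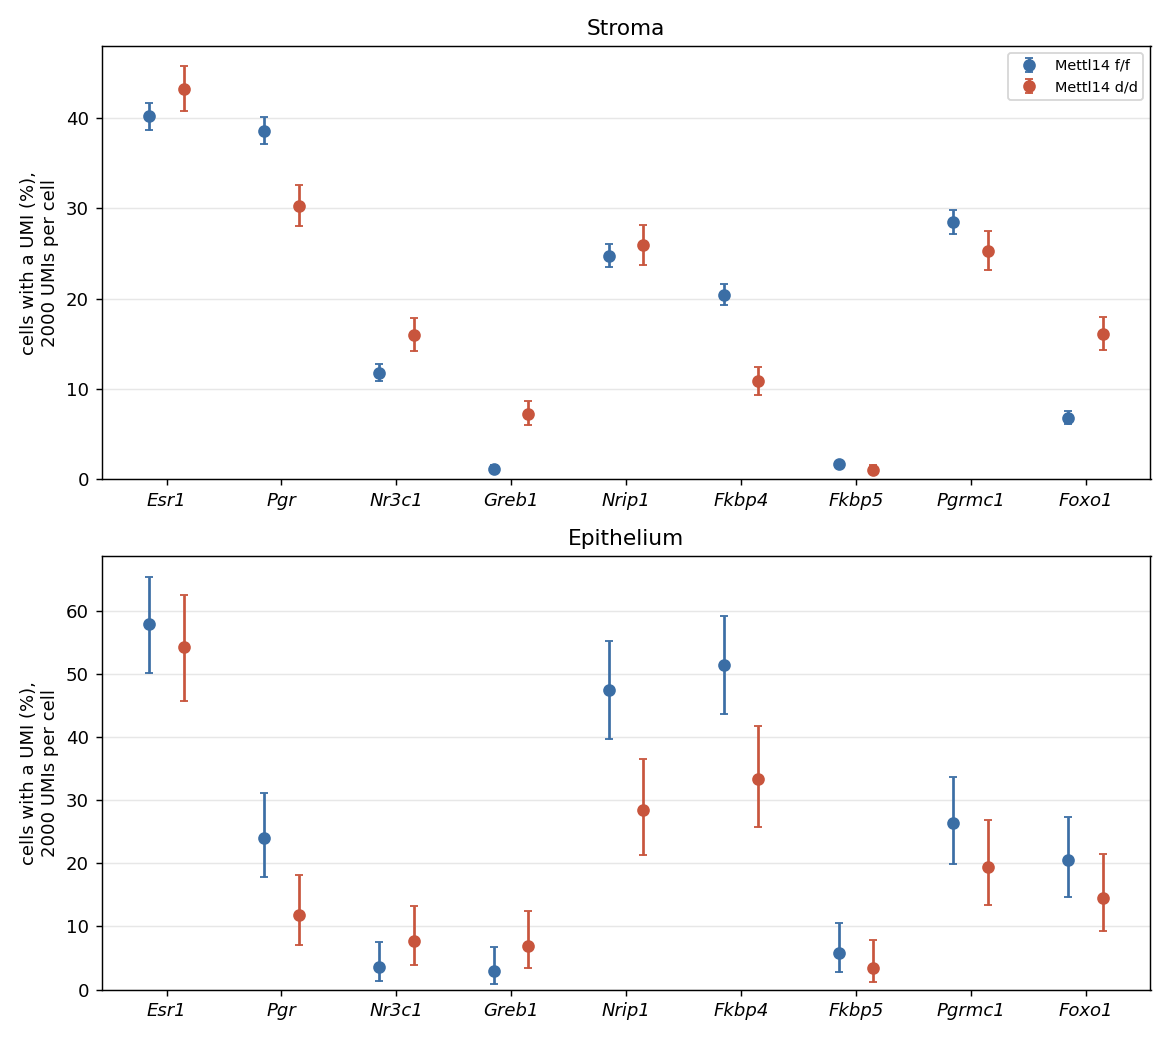
Share of stromal and epithelial cells with at least 1 UMI of each gene after thinning every cell to 2000 UMIs, in percent, with exact 95% Clopper-Pearson intervals, for f/f in blue and d/d in red. In stroma Greb1 was found in 1.19% and 7.27% of cells and Foxo1 in 6.82% and 16.1%, whereas the Esr1 shares, 40.1% and 43.2%, lie close together.

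Profiles across cell classes were compared by Pearson correlation of log2(CPM + 1) over 19 class and library units, among 12516 genes. Both libraries enter with the same classes and depth differs between units, so the values are a description. The genes most like Esr1 were Kif3a (0.929), Dync2h1 (0.921), Sdc2 (0.918) and Bcl9 (0.918), and those most like Pgr were Ror2 (0.927), Gm16485 (0.922), Snhg18 (0.911) and Txndc5 (0.910). Among the 9 genes, Esr1 correlated with Greb1 at 0.822, with Pgr at 0.766 and with Nr3c1 at -0.587.

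The wider pathway was read from gene lists by the same rule, over genes with 20 UMIs or more in the class. The lists share some genes, such as Sgk1, Wnt4 and Dnajb1, so their counts are not separate readings. The median log2 fold of all genes tested was -0.12 in stroma and -0.14 in epithelium. Of 6 other steroid receptors measured in stroma, 0 were higher and 1 was lower, with a median of 0.20. The lower one was Paqr8, a membrane progestin receptor (2.70 and 1.31 CPM). In epithelium Paqr8 (34.0 and 4.80 CPM) and Esrra, an orphan receptor (32.1 and 14.6 CPM), were lower.

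The chaperones of the receptor complex did not move as a block. In stroma 2 of 12 were higher, Dnajb1 (65.1 and 315 CPM) and Hsp90aa1 (664 and 1102 CPM), the inducible members of the HSP40 and HSP90 families. Dnajb1 is also counted among the dissociation-response genes. Stip1, which links HSP70 to HSP90 (89.1 and 42.7 CPM), and Cdc37, the kinase cochaperone (125 and 78.0 CPM), were lower. The list median was -0.21. In epithelium Dnajb1 (213 and 533 CPM) and Hsp90aa1 (544 and 879 CPM) were again higher and Dnaja1 lower (1329.6 and 626 CPM).

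Of 19 coactivators and corepressors measured in stroma, Ncoa3 alone was higher (22.0 and 34.8 CPM) and Safb, an estrogen receptor corepressor, alone lower (100.2 and 59.6 CPM). In epithelium 2 of 19 were higher and 5 lower. Ncoa7 had 96.0 and 344 CPM, whereas Gata2, a partner of the progesterone receptor (317 and 148 CPM), Nr2f2 (107 and 47.5 CPM) and Safb (109 and 56.4 CPM) were lower.

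Genes known to be induced by glucocorticoids were higher more often in stroma than lower, 8 against 3 of 15, with a median of 0.77. Sgk1, a kinase, had 16.4 and 93.1 CPM, Dusp1, a phosphatase also counted among the dissociation-response genes, 99.8 and 486 CPM, and Mt2, a metallothionein, 41.4 and 203 CPM. Sult1a1 was lower, at 27.3 and 5.15 CPM, as were Tsc22d3 and Zbtb16, which were singled out after their values were seen. Fkbp5, induced by the same hormones, was lower in stroma, as given above. Pericytes (11 of 14 higher, 0 lower) and blood endothelium (10 of 15 higher, 0 lower) showed the list higher as well, and all 16 dissociation-response genes were higher in both. In epithelium 3 of 15 were higher and 5 lower, among them Dusp1 (326 and 67.2 CPM), Tsc22d3 (63.4 and 15.6 CPM) and Sgk1 (60.1 and 22.5 CPM), while Lcn2 was higher (8.26 and 28.3 CPM).

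Progesterone targets of the stroma split in stroma itself, with 4 of 16 higher, 3 lower and a median of 0.02. Cebpb had 83.0 and 421 CPM and Wnt4 6.27 and 22.0 CPM, whereas Fst, the activin-binding follistatin, had 279 CPM in f/f against 46.6 CPM in d/d. Progesterone targets of the epithelium were lower in 6 of 14 and higher in 2 of 14 in that tissue, with a median of -2.20 over the 14. Hdc, the histamine-forming enzyme, had 664 and 8.40 CPM, Lrp2 575 and 10.8 CPM, Calb1 740.1 and 31.4 CPM, and Acod1 145 and 8.16 CPM. Hdc, Lrp2 and Calb1 also served as luminal markers in naming the f/f parts. Against the luminal-like part 6 of 12 measured genes were lower and 2 higher, with a median of -1.01, and against the glandular-like part 3 of 12 were lower and 2 higher, with a median of -0.37. The genes measured differ between these counts, so the medians are not to be ranked against that of the 14.

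Estrogen-induced genes were higher in 11 of 17 and lower in 3 of 17 in epithelium, with a median of 1.05. Ccnd1, a cyclin of the G1 phase, had 20.2 and 139 CPM, Aqp5, a water channel, 22.5 and 93.6 CPM, Padi1, an arginine deiminase, 17.9 and 78.9 CPM, and Cxcl15 174 and 641 CPM. Cxcl15 also served as a glandular marker in naming the f/f parts. The count was 11 of 17 against the luminal-like part and again 11 of 17 against the glandular-like part, with medians of 0.78 and 0.94. In stroma 5 of 15 were higher and 4 lower, with C3 at 30.7 and 149 CPM, Lif at 1.43 and 5.84 CPM and Ccnd1 at 36.9 and 9.15 CPM. Ccnd1 was thus higher in d/d epithelium and lower in d/d stroma.

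Genes linked to FOXO1 were higher in 6 of 15 and lower in 3 of 15 in stroma, with a median of 0.39. Irs2, an insulin receptor substrate, had 6.53 and 43.8 CPM, Gadd45a 8.97 and 50.9 CPM and Trib1 12.1 and 37.4 CPM, while Foxo4 had 20.4 and 8.0 CPM. In the shared stromal cluster 7 of 15 were higher and 1 lower. In epithelium 5 of 14 were higher and 2 lower: Irs2 had 33.5 and 2.64 CPM and Pik3r1 198 and 119 CPM, whereas Trib1 (53.3 and 178 CPM) and Foxo3 (20.7 and 66.0 CPM) were higher.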

How the data were processed

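The deposited values are unnormalized UMI counts for each gene in each barcode, per the file headers, made by the authors with 10x 3′ v3 chemistry, per the labels' protocols. Cell Ranger 3.0.1 and mm10 are named per the submitters' processing notes, whereas the file headers name cellranger 6.0.1, so the version is uncertain. No barcode held fewer than 500 UMIs. Deposited totals were 55080123 UMIs over 8164 barcodes in f/f and 44745031 UMIs over 6661 barcodes in d/d.

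The cell filter (1000 UMIs or more, 500 genes or more, mitochondrial share up to 20%) passed 7610 f/f and 6325 d/d barcodes. The highest Scrublet scores, at 0.8% per 1000 barcodes, were removed as doublets (533 and 355 barcodes marked); the automatic threshold marked 0 in f/f and so had not worked there. Log counts per 10000 entered 30 components of 2000 variable genes and were clustered by Leiden at resolution 1 with 15 neighbours (scanpy 1.11.5, leidenalg 0.10.2, igraph 0.11.9, scikit-learn 1.9.0), epithelium again at 0.5. None of the 9 genes was among the variable genes of all cells, and 1 was in the epithelium. Clusters were named from marker genes. An epithelial sub-cluster (102 f/f, 18 d/d cells) was set aside because its summed markers of another class reached 25% or more of that class's level. Its stroma markers stood at 51.4% of the stromal level in the f/f cells and 6.27% in the d/d cells. CPM are the UMIs of a gene in a class over all UMIs of that class in the library; comparison needed 100 cells of the class on both sides, and description of a part 50 cells. Symbols shared by several identifiers left 36 other identifiers apart.

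Intervals at 95% came from scipy 1.17.1 and were tested on simulated data. The free RNA share, set from stroma markers in immune classes, was 10.1% in f/f and 3.58% in d/d. The text names the 9 genes in each of the 6 compared classes, Mettl14, up to 4 genes per list and class past the rule, ranked by the interval bound nearest 0, and the 4 genes most like Esr1 and Pgr among those with at least 200 UMIs. A gene of the lists is not reported here. The genes and lists were chosen with earlier results of these data known. Alternatives covered cell and doublet filters, scaling (TMM, edgeR 4.0.16), clustering, weighting of cells, parts of a class, free RNA, the call rule and thinning (1000 or 4000 UMIs, or none). Gene positions are from the GRCm38 annotation (GENCODE) and upstream sequences from RefSeq.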

Additional observations from a re-analysis of the deposited data

Results flagged for a closer look

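Foxo1 had a log2 fold of d/d over f/f of 1.21 in stroma and of -0.77 in epithelium, with the intervals of the 2 classes on opposite sides of 0. The difference between the classes was not tested, since each class has 1 library per genotype. The stromal value ranged from 0.80 to 1.43 over 11 alternative settings. The epithelial value ranged from -1.15 to -0.24 over 14 settings, 3 of which lay under 1.5-fold, and the value nearest 0 was that against the f/f luminal-like part.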

How the results depend on the processing

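No paired analysis was possible because each genotype has 1 library, and no replicate could be left out. All 18 differences of at least 1.5-fold kept their direction in every setting run for them. The values of 6 came under 1.5-fold somewhere: Fkbp5 in stroma (2 of 11 settings, range -0.87 to -0.32), Nr3c1 (1 of 14), Nrip1 (2 of 14) and Foxo1 (3 of 14) in epithelium, Nr3c1 in smooth muscle (4 of 11, 0.24 to 0.83) and Pgrmc1 in macrophages (2 of 10). Greb1 in stroma ranged from 1.85 to 2.82. A 2-fold rule left 2 genes in stroma (4 at 1.5-fold), 2 in epithelium (5) and 1 in smooth muscle (4). Keeping the set-aside sub-cluster left 3 in epithelium. Pericytes went from 0 genes to 4 with doublets kept, 3 with TMM scaling, 3 with the libraries clustered separately, 2 with a minimum of 2000 UMIs, 2 with no 50-UMI minimum, 2 with the Sncg and Rergl cluster counted with them, and 1 each with totals without mitochondrial and ribosomal protein genes, with the automatic doublet threshold and with free RNA subtracted. Blood endothelium went from 1 gene to 4 with the automatic doublet threshold and to 2 each with TMM scaling, totals without mitochondrial and ribosomal protein genes, each cell counted alike, a minimum of 2000 UMIs, doublets kept, free RNA subtracted and no 50-UMI minimum. These counts under changed settings, and those under the 2-fold rule, are given without the share of all genes past the rule in the same setting. They therefore do not show whether the genes followed here passed the rule more often than all genes did. The causes of the changes in count were not tested. The settings with the set-aside sub-cluster kept, with the Sncg and Rergl cluster moved and without the d/d epithelial sub-cluster of highest UMIs were chosen after seeing the data. Of the values that are no such count, 579 of 662 log2 folds and 48 of 59 list medians stayed within their interval or spread, and 157 of 324 shares did, which move with the depth of thinning. TMM scaling moved the median log2 fold of all genes from -0.13 to 0.07 in epithelium, from -0.12 to 0.05 in smooth muscle, from -0.16 to 0.04 in pericytes and from -0.09 to 0.37 in macrophages, and folds there should be read relative to it.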
